A study of Mus musculus with 6 samples.

Results

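The 53 genes described here encode proteins that copy DNA and divide cells. They were taken as a fixed list of symbols, chosen with earlier results of these data known. Of these genes, 16 act at the entry into and passage through DNA synthesis (G1/S members). The other 37 act in the approach to and passage through mitosis (G2/M members). All 53 were among the 24411 symbols listed in the files, and all 53 passed the filter on low counts that left 13076 genes to test. RNA came from C2C12, an immortalised mouse myoblast line with wild-type genotype, whose cells leave the cell cycle and fuse into multinucleated myotubes when the serum is lowered. Fully differentiated myotubes received 10 µM Sardomozide, which blocks the polyamine enzyme AMD1, or DMSO alone as the solvent control. Both exposures lasted 72 h, with 3 libraries per group. The labels call the cell type myoblasts and the samples myotubes, and separate cultures are not stated for libraries sharing a group, so the tests capture spread among these 6 libraries alone, which may be technical.

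In a dividing cell, the E2F factors and cyclin E start a programme that loads the MCM helicase onto replication origins, and the helicase is then fired with CDC45 and the GINS complex. Later in the cycle, FOXM1 and B-MYB, together with the MuvB core complex, turn on cyclins A and B, the mitotic kinases, the kinetochore proteins, the kinesins of the spindle and the proteins that split the cell. In resting cells the DREAM complex, built on the same MuvB core, holds these genes down. Myotube nuclei have left the cycle, while cultures of this line are known to keep some mononucleated cells. In RNA from a whole culture, fewer cells of a type and less RNA per cell cannot be told apart, so these counts do not say which cells the transcripts came from.

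Myotubes given Sardomozide had slightly higher levels of most G2/M members than myotubes given DMSO, and no such shift among the 16 G1/S members. Other S-phase genes, outside the list and given further below, leaned slightly upward (median log2 fold change 0.10 over 33 genes). Of the 37 G2/M members, 11 rose, 0 fell and 26 did not pass. Of the 16 G1/S members, 1 rose (Mcm2), 1 fell (E2f8) and 14 did not pass. Over all 13076 genes tested, 7.88% rose and 8.45% fell (16.3% in either direction). The median log2 fold change (Sardomozide over DMSO) was 0.21 for G2/M members, 0.0077 for G1/S members and −0.00082 for all genes tested. The fitted change was above 0 for 36 of 37 G2/M members and for 8 of 16 G1/S members, against 49.8% of all genes tested. A gene was called when the quasi-likelihood test of edgeR gave an adjusted p (Benjamini-Hochberg over all genes tested) under 0.05, and with that test 20 G2/M members and 4 G1/S members had an unadjusted p under 0.05, against 29.6% of all genes tested. DESeq2 and limma-voom called 10 and 8 G2/M members higher, and each called 0 lower. Over all genes tested, both also called fewer genes higher than edgeR did. The difference between both lists was not tested. The changes were small, since no member changed by more than 0.43 on the log2 scale. The number of G2/M members called depended on the libraries: 16, 6 and 4 rose without Sardomozide replicate 1, 2 and 3, and 3, 8 and 4 rose without DMSO replicate 1, 2 and 3. Over all genes, 620 to 927 rose with 1 library left out, against 1030 with all libraries, and the fewest rose without DMSO replicate 1. The loss of calls was therefore not confined to G2/M members. In all of these fits the fitted change stayed above 0 for at least 34 of the 37 G2/M members. Among G1/S members, 0 were higher without Sardomozide replicate 3, DMSO replicate 1 or DMSO replicate 2, and 2 were higher without Sardomozide replicate 1. Without Sardomozide replicate 2 or DMSO replicate 2, 2 G1/S members were lower.

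**Figure D1:**
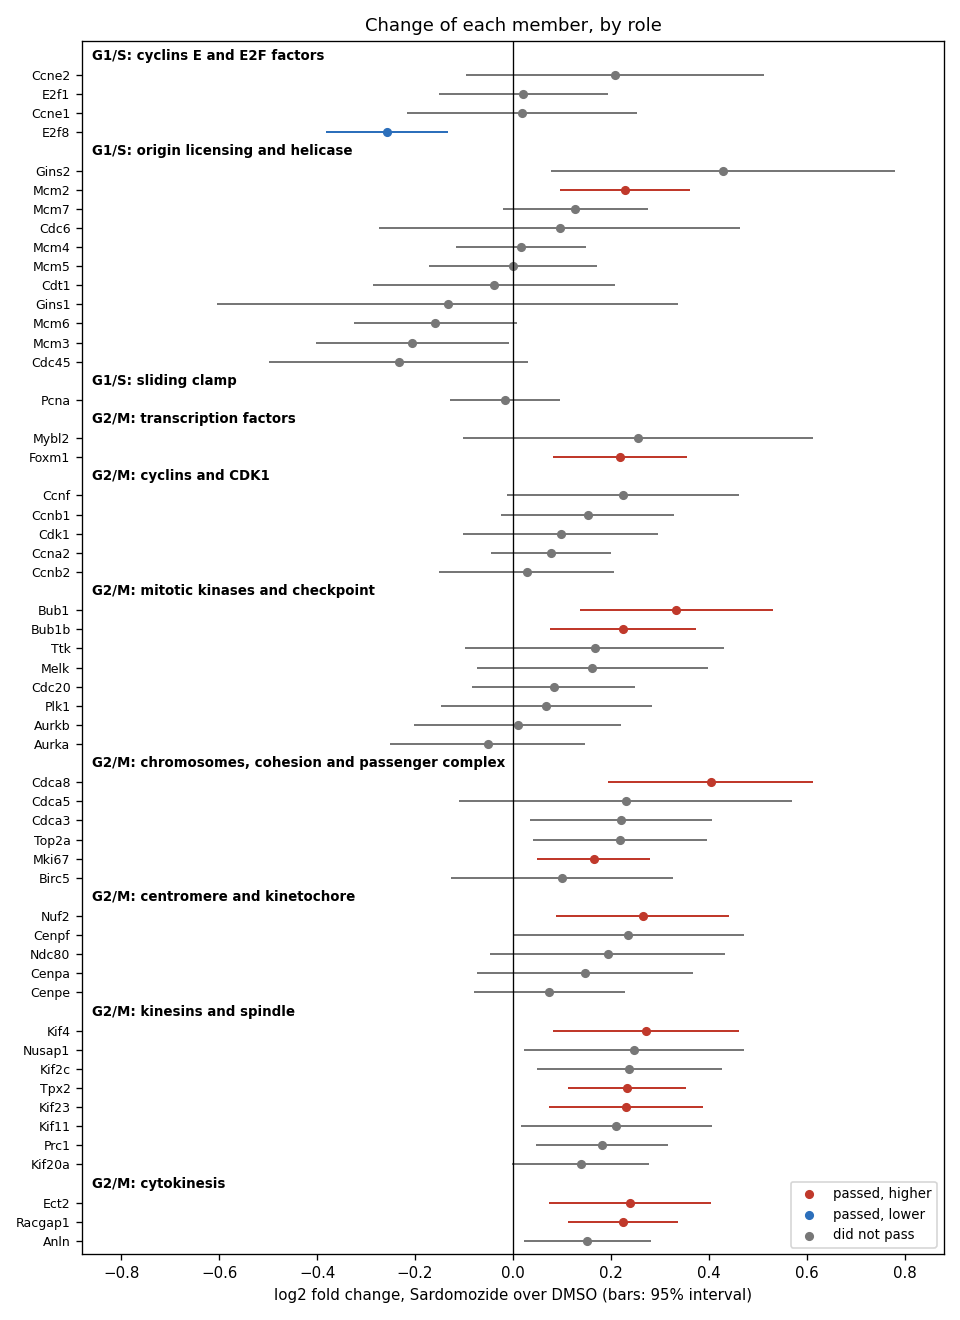
Log2 fold change of each of the 53 members, Sardomozide over DMSO (x axis), grouped by role (y axis). Points are edgeR estimates and bars their 95% intervals. Red marks the 12 members that rose, blue the 1 that fell (E2f8) and grey the 40 that did not pass; 36 of the 37 G2/M points lie right of 0.

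Promoters were read because the 2 sets of genes are known to be controlled through different DNA elements. RefSeq promoter windows of GRCm38.p6, from 250 bases before to 50 bases after the gene start, were matched for 32 of 37 G2/M members and 12 of 16 G1/S members. They were searched on both strands for E2F sites (TTTGGCGC, TTTCGCGC, TTTCCCGC or TTTGCCGC), for the cell cycle genes homology region, or CHR (TTTGAA or TTCGAA), which the MuvB core binds, and for the CCAAT box (CCAAT), which NF-Y binds. CHR letters were found in 25 of the 32 G2/M windows (78.1%) and in 4 of the 12 G1/S windows (33.3%), against 13.1% of 9894 windows of genes tested and 18.4% of all 20595 windows. E2F letters showed the opposite order, with 1 of 32 G2/M windows (3.12%) and 6 of 12 G1/S windows (50%), against 4.06% of windows of genes tested and 2.64% of all windows. CCAAT was found in 71.9% of G2/M and 66.7% of G1/S windows, against 38.6% of windows of genes tested and 38.2% of all. CHR and CCAAT stood together in 21 G2/M windows (65.6%), against 5.58% of windows of genes tested and 7.33% of all windows. Both were present in 8 of the 9 matched G2/M members that rose and in 13 of the 23 that did not pass. This difference was not tested. Matches of different motifs overlapped in 2 of the 44 member windows. A match describes letters and does not show that a factor binds there.

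**Figure D2:**
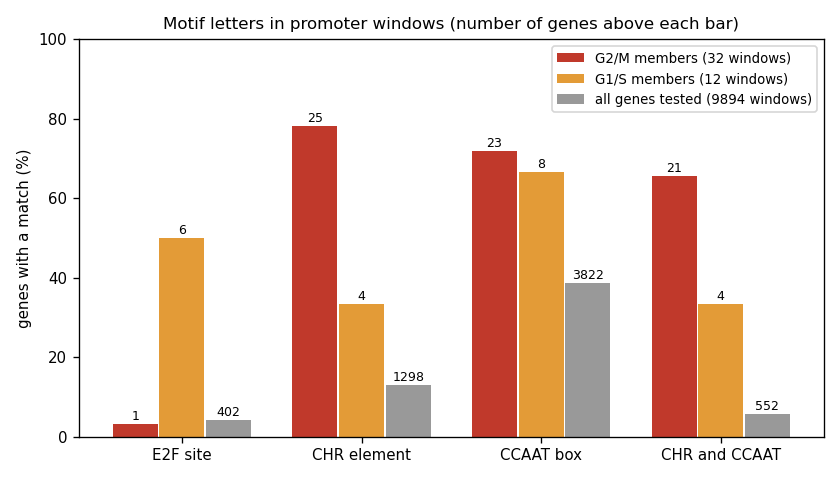
Share of genes whose promoter window holds each motif (y axis, percent) for G2/M members, G1/S members and all genes tested, with the number of genes above each bar. CHR letters were most frequent in G2/M members (25 of 32) and E2F letters in G1/S members (6 of 12).

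Exon-free stretches before the start sites are shown, so that the letters behind these shares can be read. They belong to the 2 G1/S and 2 G2/M members with the largest changes among those that passed, were matched and held a motif in such a stretch, and, chosen after the matches were seen, for the G1/S member with the most E2F matches (Mcm6) and the G2/M member with the most CHR matches (Top2a). Capitals mark the motif letters on either strand (ATTGG is CCAAT, and TTCAAA is TTTGAA, on the other strand), and no printed base lies in an exon annotated by GENCODE. All 6 lie on the minus strand of GRCm38.p6 and are written 5′ to 3′ in the direction of the gene. The stretches are chr7:48881597-48881746 (E2f8), chr6:88898781-88898930 (Mcm2), chr1:128359706-128359855 (Mcm6), chr2:127831866-127832015 (Bub1), chr3:27153879-27154025 (Ect2) and chr11:99024190-99024339 (Top2a).
E2f8: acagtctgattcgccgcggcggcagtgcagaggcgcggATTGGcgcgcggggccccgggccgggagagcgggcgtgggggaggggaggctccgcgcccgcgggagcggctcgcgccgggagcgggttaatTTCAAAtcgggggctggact
Mcm2: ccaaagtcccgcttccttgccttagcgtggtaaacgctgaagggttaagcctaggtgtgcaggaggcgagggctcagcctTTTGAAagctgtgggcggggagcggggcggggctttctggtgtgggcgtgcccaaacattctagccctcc
Mcm6: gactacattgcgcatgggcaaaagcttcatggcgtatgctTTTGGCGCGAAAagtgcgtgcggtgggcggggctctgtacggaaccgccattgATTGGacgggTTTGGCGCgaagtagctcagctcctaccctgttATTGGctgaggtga
Bub1: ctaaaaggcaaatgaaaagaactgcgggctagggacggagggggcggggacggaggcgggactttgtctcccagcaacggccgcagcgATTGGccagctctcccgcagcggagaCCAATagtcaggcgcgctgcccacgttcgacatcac
Ect2: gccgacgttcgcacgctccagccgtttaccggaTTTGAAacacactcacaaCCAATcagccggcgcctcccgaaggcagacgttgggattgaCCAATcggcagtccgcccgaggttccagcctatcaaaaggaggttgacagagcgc
Top2a: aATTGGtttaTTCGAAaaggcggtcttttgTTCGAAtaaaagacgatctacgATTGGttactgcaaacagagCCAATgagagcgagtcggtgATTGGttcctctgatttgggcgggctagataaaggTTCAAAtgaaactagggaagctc
Mcm6 held 3 E2F matches, 2 of them overlapping, and no CHR match, whereas Top2a held 3 CHR matches and 4 CCAAT boxes in the stretch shown. E2f8 and Mcm2, the G1/S members that passed the test, held a CHR match and no E2F match. The CHR match of Bub1 lay outside the stretch shown, and 11 of the 25 matched G2/M members with CHR letters had them before the start site.

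Library totals ran from 30820423 to 36709804 counts with Sardomozide and from 25496323 to 32108033 with DMSO, and members had between 66 counts (Gins1) and 4407 counts (Mki67) in a library. Levels are given as CPM, counts scaled to library size with TMM factors. Amd1 had 0, 0 and 0 counts with Sardomozide and 0, 3 and 0 with DMSO, at or under the 3 counts that a count of 0 allows, so it gives no check of the labels. Of 11 listed myotube markers, 10 were among the symbols (Mymk was not), and these 10 were present in every library. Their summed level was 20104 to 22939 CPM with Sardomozide and 19864 to 21131 CPM with DMSO. The top of the Sardomozide range came from replicate 2, where Ttn, the titin gene, had 4043 CPM, against 1372 to 1745 CPM in the other libraries. Of the 10 myotube markers, Myog and Cdkn1a rose (log2 fold changes 0.24 and 0.22) and Myh8, a fetal myosin gene, fell by 0.63 (edgeR adjusted p = 0.000547, 0.00178 and 1.2e-06). Pax7, a marker of muscle stem and reserve cells, was detected too (log2 fold change 0.09, edgeR adjusted p = 0.24). Of 10 myoblast and reserve cell markers 1 rose (Id2) and 2 fell (Hes1 and Spry1). Fitted changes were below 0 for 8 of the 10 and above 0 for 2 (Pax7 and Id2), with a median of −0.12. The 10 markers summed to 837 to 864 CPM with Sardomozide and 890 to 904 CPM with DMSO. The largest part of that sum was Myod1, with a mean of 257 CPM with Sardomozide and 278 CPM with DMSO, which did not pass. Without Sardomozide replicate 2 or 3 or DMSO replicate 1 or 3, Hes1 lost its call (edgeR adjusted p = 0.0578, 0.0506, 0.0858 and 0.0748). The part of these cells in the members' differences was not tested. The blood marker genes Ptprc and Adgre1 were at 0 in all libraries, as were all 4 adipocyte genes and the fibroblast gene Tcf21. The sum of 4 blood and macrophage markers was 2.75 to 3.56 CPM with Sardomozide and 1.77 to 2.38 CPM with DMSO, and that of 4 endothelial markers 0.643 to 0.896 CPM and 0.59 to 1.07 CPM. Of the blood markers 1 of 2 tested rose (Itgam), a call lost without Sardomozide replicate 1 or DMSO replicate 1 or 2 (edgeR adjusted p = 0.132, 0.081 and 0.135). All 3 tested fibroblast markers had fitted changes below 0, and 1 fell (Dcn, log2 fold change −0.77, edgeR adjusted p = 0.00187). The fibroblast list sum was 2227 to 3072 CPM with Sardomozide and 2555 to 3101 CPM with DMSO. Most of it was Col1a1, with a mean of 2647 CPM with Sardomozide and 2876 CPM with DMSO, which did not pass. The part of these markers in the members' differences was not tested.

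Per kilobase of annotated exon, the mean level over the 6 libraries was highest for Pcna (24.5 CPM per kilobase), Cdc20 (16.9) and Ccnb2 (14.7) and lowest for Cdc6 (0.748), with a median of 4.62 CPM per kilobase over the 53. The G2/M members summed to 1118, 1278 and 1261 CPM in Sardomozide replicates 1, 2 and 3, against 1098, 1095 and 1037 CPM in DMSO replicates 1, 2 and 3. The groups did not overlap, but Sardomozide replicate 1 lay close to the DMSO libraries. The mean sum was 1219 ± 87.8 CPM with Sardomozide and 1077 ± 34.5 CPM with DMSO (SD, n = 3 each), 13.2% higher. For the G1/S members the sums were 370, 399 and 404 CPM in the Sardomozide libraries, against 401, 386 and 405 CPM in the DMSO libraries, and the groups overlapped. The ratio of the G2/M sum to the G1/S sum was 3.02, 3.20 and 3.12 with Sardomozide, above the values of 2.74, 2.84 and 2.56 with DMSO in every library. These sums depend most on the abundant members and were given no test.

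**Figure D3:**
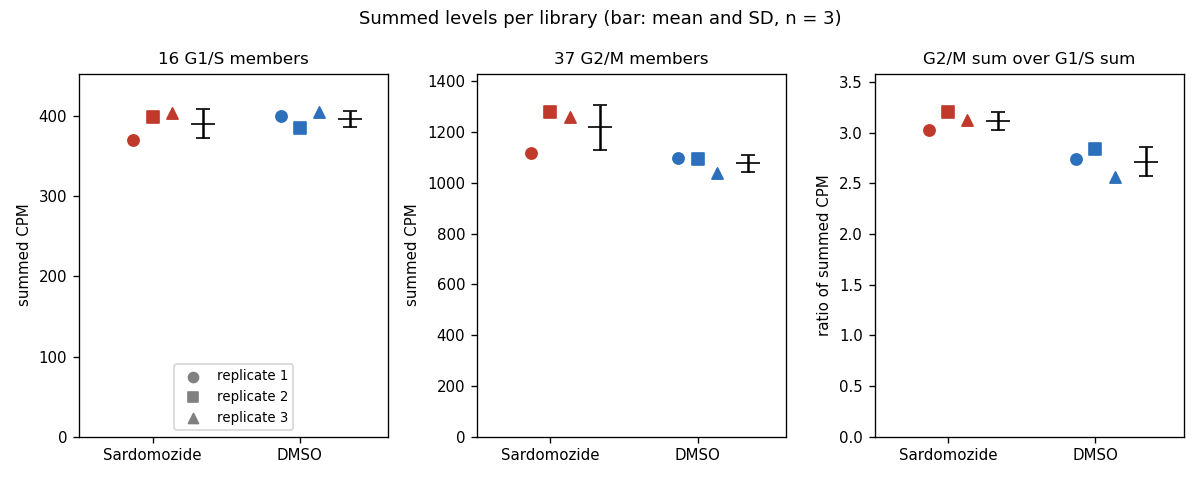
Summed CPM of the 16 G1/S members (left) and 37 G2/M members (middle), and their ratio (right), in each of the 3 Sardomozide and 3 DMSO libraries; bars give mean and SD. Sardomozide replicate 1 (1118 CPM for G2/M) lies nearer the DMSO libraries (1037 to 1098 CPM) than the other Sardomozide libraries do.

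For most G2/M members the same library was the lowest of its group. Sardomozide replicate 1 was the lowest of its group for 32 of 37 G2/M members (86.5%) and for 9 of 16 G1/S members, against 34.8% of all genes tested. DMSO replicate 3 was the lowest of its group for 23 of 37 G2/M members (62.2%) and for 5 of 16 G1/S members, against 33.6% of all genes tested. Relative to the DMSO mean, the median G2/M member stood at 0.05 on the log2 scale in Sardomozide replicate 1, and at 0.23 in each of the other Sardomozide libraries. The median coefficient of variation of the G2/M members was 8.72% among Sardomozide libraries and 5.998% among DMSO libraries, against 6.36% and 5.50% over all genes tested. It was larger among the Sardomozide libraries for 27 of 37 G2/M members (73.0%) and for 56.2% of all genes tested. Libraries also differed in the share of counts from Rn45s, the ribosomal RNA precursor, which was 1.42, 1.37 and 1.17% with Sardomozide and 1.17, 0.941 and 0.909% with DMSO; its part in the members' differences was not tested.

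**Figure D4:**
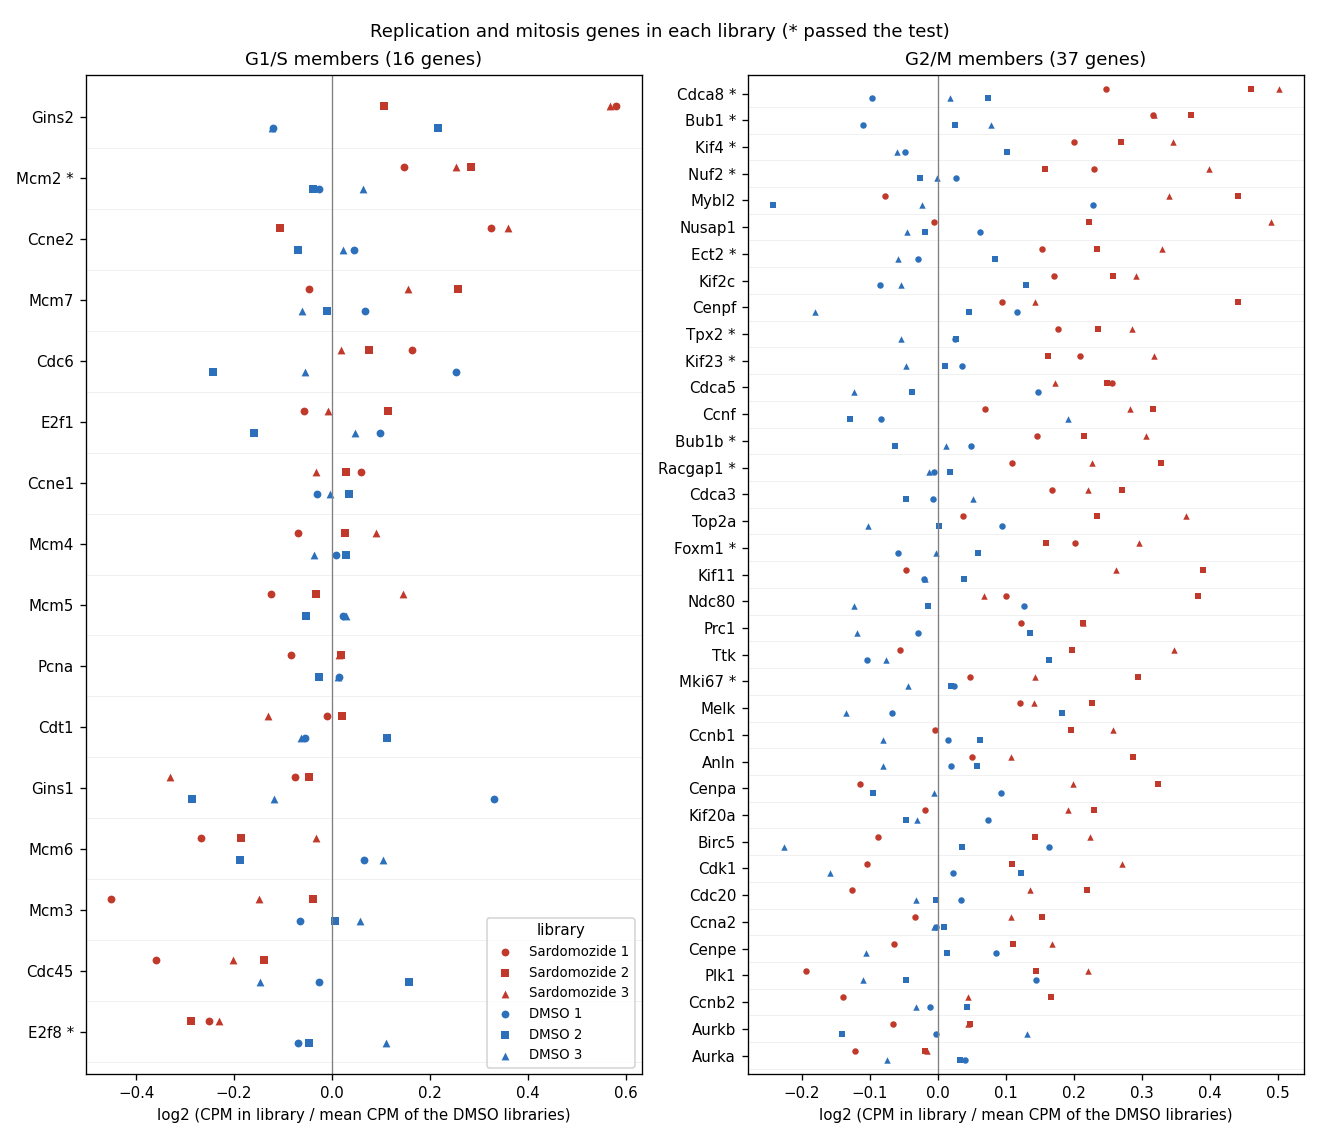
Level of each member in each library, as log2 of its CPM over the mean CPM of the DMSO libraries (x axis), for G1/S members (left) and G2/M members (right); red points are Sardomozide and blue points DMSO libraries, with a marker shape for each replicate. Among G2/M members Sardomozide replicate 1 (red circles) is the lowest Sardomozide library for 32 of 37 genes.

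Among the cyclin E and E2F genes, only E2f8 passed the test. E2f8, an atypical E2F that represses E2F target genes (chromosome 7, 48866429 to 48881596), had 47.3, 46.1 and 48.0 CPM in the Sardomozide libraries, against 53.7, 54.5 and 60.8 CPM in the DMSO libraries. All Sardomozide libraries were below all DMSO libraries, and E2f8 fell by 16.3% (log2 fold change −0.26 ± 0.059 SE, edgeR adjusted p = 0.00467); it passed in all 16 alternative fits judged at 0.05. E2f1, an activator of replication genes, had 23.5, 26.5 and 24.3 CPM with Sardomozide, against 26.2, 21.9 and 25.3 CPM with DMSO. Its groups overlapped (0.02 ± 0.082, 95% interval −0.15 to 0.19, edgeR adjusted p = 0.896). The cyclin E genes Ccne1 and Ccne2, which activate CDK2, had log2 fold changes of 0.02 ± 0.11 and 0.21 ± 0.15 and did not pass.

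The subunits of the MCM helicase did not move together. Mcm2 (chromosome 6, 88883474 to 88898780), whose promoter holds the CHR letters shown above, had 39.1, 43.0 and 42.0 CPM with Sardomozide, against 34.6, 34.4 and 36.9 CPM with DMSO. The groups did not overlap, and Mcm2 rose by 17.2% (log2 fold change 0.23 ± 0.063, edgeR adjusted p = 0.016). Its call was lost without Sardomozide replicate 2 or 3 or DMSO replicate 1 or 2 (edgeR adjusted p = 0.0577, 0.0529, 0.0659 and 0.0699). Mcm6 had 40.4, 42.8 and 47.6 CPM with Sardomozide, against 51.0, 42.8 and 52.3 CPM with DMSO, and the fitted change was −0.16 ± 0.077 (edgeR adjusted p = 0.184, but 0.0321 without DMSO replicate 2). Mcm7 had 43.9, 54.2 and 50.5 CPM with Sardomozide, against 47.5, 45.01 and 43.5 CPM with DMSO, and its groups overlapped (0.13 ± 0.070, edgeR adjusted p = 0.235, but 0.0326 without Sardomozide replicate 1). Mcm3, Mcm4 and Mcm5 had log2 fold changes of −0.21, 0.02 and −0.00035, and of the 3 only Mcm3 passed without any library (edgeR adjusted p = 0.0435 without Sardomozide replicate 2). The helicase activators Cdc45 and Gins1 had −0.23 ± 0.13 and −0.13 ± 0.23, and Gins2 had the largest estimate of all members, 0.43 ± 0.17 (95% interval 0.08 to 0.78, edgeR adjusted p = 0.0875, but 0.0274 without Sardomozide replicate 2). The loading factors Cdc6 and Cdt1 had 0.10 ± 0.18 and −0.04 ± 0.12. Pcna, the sliding clamp of the replication fork, had 55.7, 59.8 and 59.6 CPM with Sardomozide, against 59.6, 58.0 and 59.5 CPM with DMSO. Its groups overlapped, and its 95% interval ran from −0.13 to 0.09 on the log2 scale (edgeR adjusted p = 0.873).

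Of the transcription factors that switch on mitotic genes, Foxm1 (chromosome 6, 128362967 to 128376146) had 37.5, 36.4 and 40.02 CPM with Sardomozide, against 31.3, 33.9 and 32.5 CPM with DMSO. Every Sardomozide library was above every DMSO library, and Foxm1 rose by 16.3% (log2 fold change 0.22 ± 0.065, edgeR adjusted p = 0.025). The call was lost without Sardomozide replicate 3 or DMSO replicate 1 or 3 (edgeR adjusted p = 0.108, 0.11 and 0.0728). Mybl2, which encodes B-MYB, was low, with 4.36, 6.25 and 5.83 CPM with Sardomozide, against 5.39, 3.89 and 4.53 CPM with DMSO, and its groups overlapped (0.26 ± 0.17, edgeR adjusted p = 0.343).

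Genes of the mitotic cyclins and of CDK1, the kinase they activate, did not pass: 0 of 5 were called. Ccna2, the cyclin A gene of dividing cells, had 49.4, 56.2 and 54.5 CPM with Sardomozide, against 50.4, 50.9 and 50.3 CPM with DMSO. Cdk1 had 24.4, 28.3 and 31.7 CPM with Sardomozide, against 26.7, 28.6 and 23.5 CPM with DMSO. In both genes Sardomozide replicate 1 was below the DMSO mean and the groups overlapped (log2 fold changes 0.08 ± 0.058 and 0.10 ± 0.093, edgeR adjusted p = 0.404 and 0.534). The cyclin B genes Ccnb1 and Ccnb2 had 0.15 ± 0.084 and 0.03 ± 0.085, and Ccnf, the gene of an F-box cyclin that directs protein breakdown, had 0.23 ± 0.11.

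Of 8 genes of mitotic kinases and the spindle checkpoint, Bub1 and Bub1b rose and 6 did not pass. Bub1, a checkpoint kinase gene (chromosome 2, 127801122 to 127831865), had 15.5, 16.2 and 15.6 CPM with Sardomozide, against 11.6, 12.7 and 13.2 CPM with DMSO, and rose by 26.02% (log2 fold change 0.33 ± 0.094, edgeR adjusted p = 0.0186). Bub1b, whose product BUBR1 holds back chromosome separation, had 29.8, 31.3 and 33.4 CPM with Sardomozide, against 27.9, 25.8 and 27.2 CPM with DMSO, and rose by 16.8% (edgeR adjusted p = 0.0327). Neither gene's groups overlapped. The Bub1 call was lost without Sardomozide replicate 2 or DMSO replicate 1 (edgeR adjusted p = 0.0533 and 0.0949), and the Bub1b call without any library other than Sardomozide replicate 1 (edgeR adjusted p from 0.0573 to 0.135). Cdc20, whose product activates the ligase that starts anaphase, had 28.1, 35.7 and 33.6 CPM with Sardomozide, against 31.4, 30.6 and 30.0 CPM with DMSO, and its groups overlapped (0.08 ± 0.079, edgeR adjusted p = 0.53). The kinase genes Plk1, Aurka and Aurkb had log2 fold changes of 0.07 ± 0.10, −0.05 ± 0.095 and 0.01 ± 0.10, and Ttk and Melk 0.17 ± 0.13 and 0.16 ± 0.11. The fitted change of Aurka was the only one below 0 among the 37 G2/M members, and it was above 0 when all libraries were thinned to the smallest total (0.00081).

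Among genes of mitotic chromosomes, Cdca8 (chromosome 4, 124918465 to 124939311) showed the largest change that passed. Its product borealin belongs to the chromosomal passenger complex with Aurora B and survivin. It had 14.4, 16.7 and 17.2 CPM with Sardomozide, against 11.3, 12.8 and 12.3 CPM with DMSO, with no overlap, and rose by 32.3% (log2 fold change 0.40 ± 0.10, edgeR adjusted p = 0.00798). The other members of that complex in the list, Birc5 (survivin) and Aurkb, had 0.10 ± 0.11 and 0.01 ± 0.10. Mki67, the proliferation antigen gene, had 108, 129 and 116 CPM with Sardomozide, against 107, 106 and 102 CPM with DMSO. The groups were separated by a narrow gap between Sardomozide replicate 1 and DMSO replicate 1, and Mki67 rose by 12.1% (log2 fold change 0.16 ± 0.054, edgeR adjusted p = 0.0443). The call was lost without any library other than Sardomozide replicate 1 (edgeR adjusted p from 0.0793 to 0.231), and with DESeq2 and limma-voom (adjusted p = 0.0588 and 0.0695), and it was lost without robust estimation in edgeR (adjusted p = 0.0584). Top2a, the topoisomerase that untangles chromosomes, had 94.3, 108 and 118 CPM with Sardomozide, against 98.2, 92.0 and 85.6 CPM with DMSO. Its groups overlapped through Sardomozide replicate 1 (0.22 ± 0.079, edgeR adjusted p = 0.0906, but 0.00164 without Sardomozide replicate 1). Cdca3 and the cohesion gene Cdca5 did not overlap between the groups but did not pass (0.22 ± 0.089 and 0.23 ± 0.16).

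At the centromere, Nuf2, a subunit of the complex that ties chromosomes to microtubules (chromosome 1, 169497934 to 169531464), had 21.8, 20.7 and 24.5 CPM with Sardomozide, against 18.9, 18.2 and 18.5 CPM with DMSO. Nuf2 rose by 20.2% with no overlap between the groups (log2 fold change 0.26 ± 0.084, edgeR adjusted p = 0.035). The call was lost without Sardomozide replicate 3 or any DMSO library (edgeR adjusted p from 0.0764 to 0.158). Ndc80, its partner, had 0.19 ± 0.11 and did not pass. Cenpf had 49.4, 62.9 and 51.2 CPM with Sardomozide, against 50.2, 47.8 and 40.9 CPM with DMSO, with overlap between the groups (0.24 ± 0.10, edgeR adjusted p = 0.166). Cenpe, a kinetochore motor gene, had 31.5, 35.5 and 36.98 CPM with Sardomozide, against 34.9, 33.2 and 30.6 CPM with DMSO (0.07 ± 0.073, edgeR adjusted p = 0.543), and Cenpa, the centromeric histone gene, had 0.15 ± 0.10.

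All 8 genes grouped under kinesins and spindle had fitted changes above 0, and 3 of them rose. All 8 had an unadjusted edgeR p under 0.05 (29.6% of all genes tested had such a p). The kinetochore motor gene Cenpe, grouped with the centromere above, was not among these 8 and did not reach that level. Tpx2, which promotes microtubule growth around chromosomes (chromosome 2, 152847964 to 152895321), had 50.8, 52.96 and 54.8 CPM with Sardomozide, against 45.8, 45.8 and 43.3 CPM with DMSO, and rose by 17.5% (log2 fold change 0.23 ± 0.057, edgeR adjusted p = 0.00716). Kif23, a motor of the central spindle, had 26.5, 25.7 and 28.6 CPM with Sardomozide, against 23.5, 23.1 and 22.2 CPM with DMSO (0.23 ± 0.074, edgeR adjusted p = 0.0371). Kif4, a chromosome-bound motor, had 16.9, 17.7 and 18.7 CPM with Sardomozide, against 14.2, 15.8 and 14.1 CPM with DMSO (0.27 ± 0.090, edgeR adjusted p = 0.0448). In none of the 3 did the groups overlap. Kif23 lost its call without any library other than Sardomozide replicate 2 (edgeR adjusted p from 0.0532 to 0.138), and Kif4 lost it without Sardomozide replicate 2 or 3 or DMSO replicate 1 or 3 (edgeR adjusted p from 0.0807 to 0.151). Kif4 also lost its call with DESeq2 and limma-voom (adjusted p = 0.0514 and 0.0524), and Kif23 when libraries were thinned to the smallest total (edgeR adjusted p = 0.0645). Prc1, which bundles the microtubules of the midzone, had 53.1, 56.6 and 56.5 CPM with Sardomozide, against 47.8, 53.6 and 44.9 CPM with DMSO, and overlapped only through DMSO replicate 2 (0.18 ± 0.064, edgeR adjusted p = 0.0547, but 0.043 without Sardomozide replicate 1 and 0.0138 without DMSO replicate 2). Without Sardomozide replicate 1 the spindle motor Kif11, Nusap1 and Kif20a passed as well (edgeR adjusted p = 0.00764, 0.0178 and 0.0266).

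Of the 3 genes of cell splitting, 2 rose. Racgap1, a subunit of the central spindle complex (chromosome 15, 99620496 to 99651656), had 90.4, 105 and 98.1 CPM with Sardomozide, against 83.5, 84.8 and 83.0 CPM with DMSO, and rose by 16.8% (log2 fold change 0.22 ± 0.053, edgeR adjusted p = 0.00579). Ect2, the exchange factor that Racgap1 recruits to start furrowing (chromosome 3, 27097222 to 27153878), had 24.1, 25.5 and 27.2 CPM with Sardomozide, against 21.2, 22.9 and 20.8 CPM with DMSO, and rose by 0.24 ± 0.078 on the log2 scale (edgeR adjusted p = 0.0409). Neither gene's groups overlapped. Ect2 lost its call without Sardomozide replicate 2 or 3 or DMSO replicate 1 or 3 (edgeR adjusted p from 0.0709 to 0.149) and when libraries were thinned to the smallest total (0.117), and with limma-voom (adjusted p = 0.0518). Anln, a furrow scaffold gene, had 65.3, 76.9 and 67.9 CPM with Sardomozide, against 63.9, 65.6 and 59.6 CPM with DMSO, and overlapped only through Sardomozide replicate 1 (0.15 ± 0.061, edgeR adjusted p = 0.0983, but 0.0353 without Sardomozide replicate 1). Over the whole list, the groups did not overlap with Sardomozide higher for 14 G2/M members and 1 G1/S member, against 17.0% of all genes tested, and with Sardomozide lower for 0 G2/M members and 1 G1/S member, against 16.5%.

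Cell cycle genes outside the list were read from lists of published phase markers and complexes, also chosen with earlier results of these data known. Counts from these lists stand against the 7.88% of all genes tested that rose and the 8.45% that fell. Of 32 other G2/M genes listed, 30 were among the symbols and all 30 were tested. Of these, 11 rose, 0 fell and 19 missed the threshold, with a median log2 fold change of 0.18. The smallest p-values among them belonged to Anp32e, Psrc1, Rangap1 and Tubb4b. Psrc1, a spindle protein gene, had 10.3 ± 0.84 CPM with Sardomozide and 5.72 ± 0.718 CPM with DMSO (SD, n = 3 each; log2 fold change 0.85 ± 0.13, edgeR adjusted p = 0.000123). Anp32e, a histone chaperone gene, had 159 ± 3.6 CPM with Sardomozide and 131 ± 2.56 CPM with DMSO (0.28 ± 0.042, edgeR adjusted p = 0.00012). Rangap1 and the tubulin gene Tubb4b rose by 0.22 and 0.19 on the log2 scale. Without Sardomozide replicate 3, DMSO replicate 1 and DMSO replicate 3, 6, 7 and 6 of these genes rose. Of 33 other S-phase genes, 5 rose (15.2%), 0 fell and 28 did not pass, with a median of 0.10. The fitted change was above 0 for 24 of these 33, against 8 of 16 G1/S members. The lack of a shift among G1/S members therefore did not extend to this list. Ung, which removes uracil from DNA, had 5.26 ± 0.292 CPM with Sardomozide and 3.24 ± 0.403 CPM with DMSO (log2 fold change 0.69 ± 0.16, edgeR adjusted p = 0.00614). The ribonucleotide reductase genes Rrm1 and Rrm2 rose by 0.20 and 0.19, and Atad2 by 0.24. Rrm2 lost its call without DMSO replicate 3 (edgeR adjusted p = 0.0702) and Atad2 without Sardomozide replicate 3 (0.0623), and without DMSO replicate 3 only 3 genes of this list rose.

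Of 26 genes of origin recognition and the replication fork, 2 rose (7.69%) and 0 fell, with a median log2 fold change of 0.04, and the share that rose was near the 7.88% of all genes tested. Pold1, the catalytic subunit of DNA polymerase delta, had 19.8 ± 1.44 CPM with Sardomozide and 13.5 ± 0.372 CPM with DMSO (log2 fold change 0.55 ± 0.090, edgeR adjusted p = 0.000248). Gins3 rose by 0.38 ± 0.12 (edgeR adjusted p = 0.0297), a call lost without Sardomozide replicate 1 or 2 or DMSO replicate 2 or 3 (edgeR adjusted p from 0.0659 to 0.113). None of 9 genes listed for the MuvB core and the E2F and DP subunits of DREAM passed edgeR's test. Of the 9, 3 had an unadjusted p under 0.05, against 29.6% of all genes tested. The closest to passing were E2f4 and Tfdp1 (0.15 ± 0.053 and 0.11 ± 0.051, edgeR adjusted p = 0.0632 and 0.146). The pocket proteins of DREAM, p130 and p107, were listed with the genes that restrain the cycle, and both of their genes passed. Rbl2, which encodes p130, had 100.4 ± 6.13 CPM with Sardomozide and 117 ± 3.66 CPM with DMSO (SD, n = 3 each) and fell by 0.22 ± 0.049 on the log2 scale (edgeR adjusted p = 0.00382). It passed whichever library was left out. Rbl1, which encodes p107, had 18.7 ± 2.02 CPM with Sardomozide and 15.4 ± 0.872 CPM with DMSO and rose by 0.28 ± 0.095 (edgeR adjusted p = 0.0479), a call lost without any library other than Sardomozide replicate 3 (edgeR adjusted p from 0.0605 to 0.215).

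Genes that restrain or license the start of the cycle, those of both pocket proteins included, moved in both directions, with 4 of 14 tested higher and 3 lower. The CDK inhibitor genes Cdkn1a and Cdkn1c, both tied to muscle differentiation, had 2215 ± 43.3 and 91.9 ± 11.6 CPM with Sardomozide, against 1900 ± 69.9 and 53.7 ± 0.925 CPM with DMSO (SD, n = 3 each; edgeR adjusted p = 0.00178 and 2.26e-05). Ccnd3, the D cyclin of muscle, fell by 0.31 ± 0.042 on the log2 scale, and Cdk2, the partner of cyclin E, rose by 0.30 ± 0.055 (edgeR adjusted p = 4.14e-05 and 0.000925). Ccnd1, another D cyclin gene, fell by 0.56 ± 0.15 (edgeR adjusted p = 0.0455), a call lost without Sardomozide replicate 1 or DMSO replicate 1 or 3 (edgeR adjusted p = 0.188, 0.0831 and 0.127). Cdkn2a and Cdkn2b had no count in any library.

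**Figure D5:**
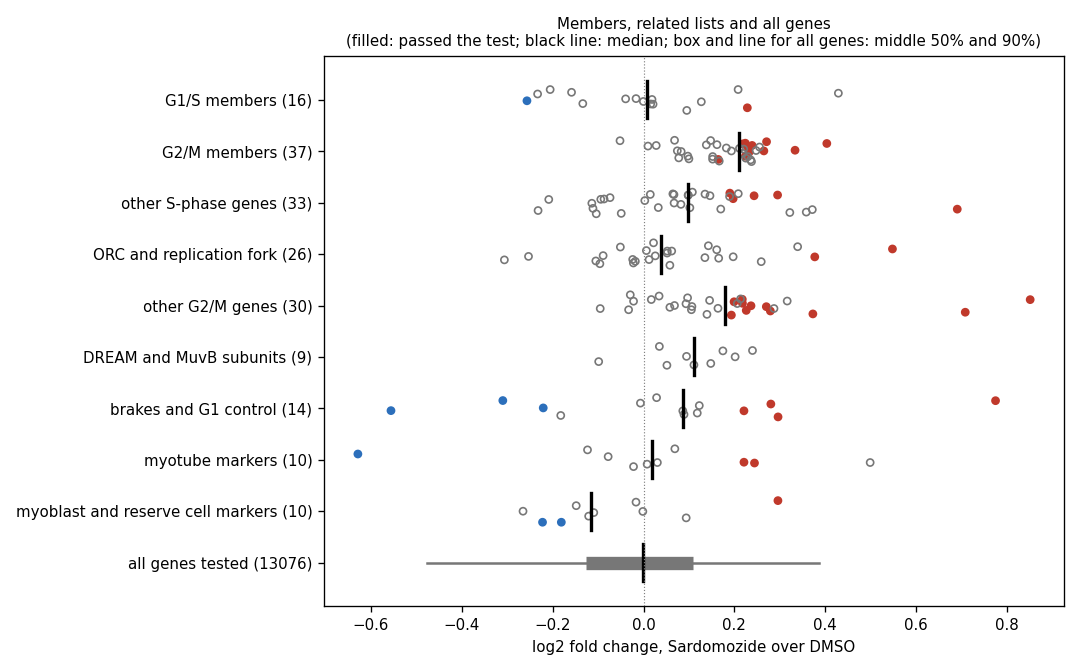
Log2 fold change, Sardomozide over DMSO (x axis), of each tested gene of the member lists, related cell cycle lists and muscle markers (rows, with the number tested), with filled points for genes that passed, a black line at each median, and the middle 50% and 90% of all genes tested. The medians of both G2/M rows (0.21 and 0.18) lie right of the median of all genes (−0.00082).

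Exons of 16 members overlap those of another annotated gene, 4 of them called, and whether counting used strand is not given in the sources used here, so reads of such pairs may be shared. Kif4 overlaps Pdzd11 and Cdca8 overlaps 9930104L06Rik on the other strand. The level of Pdzd11 averaged 36.9 CPM with Sardomozide and 39.2 CPM with DMSO, and that of 9930104L06Rik 12.9 CPM with Sardomozide and 13.6 CPM with DMSO. Neither partner passed the test. E2f8 overlaps Gm2788, and Foxm1 overlaps Gm44596 and Tex52, which were not analysed here. Ccnb1, Ccnb2, Kif4 and Pcna have pseudogenes named after them, so their values are uncertain to the extent that near-identical reads were split.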

How the data were processed

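RNA-seq of 6 libraries was used, 3 per group. Each library has its own table, in which the authors deposited whole-number, unnormalized read counts by gene symbol. STAR, StringTie and DESeq2 and the builds GRCm38 and mm10 are named per the submitters' processing notes; for versions, roles, annotation, strand setting and reads with several matches, nothing was given in the sources used here. Counts were filtered with filterByExpr of edgeR (minimum count 10, minimum total 15), scaled by TMM and tested with the robust quasi-likelihood test of edgeR 4.0.16 (R 4.3.3), with treatment as the only term and all 6 libraries. The Benjamini-Hochberg adjustment ran over 13076 genes, and calls were made at 0.05. Alternatives used other scaling, filters, thresholds and depth, DESeq2 1.42.0, limma 3.58.1 (voom), a replicate block, and each library left out in turn. Libraries of a group differed by more than sampling noise (chi-square per degree of freedom 5.45 to 16.1), which does not tell separate cultures from separate preparations of 1 culture. The floor behind a 0 was set at 3 counts (0.0823 to 0.118 CPM by library), for counting error only. The tests were run on simulated counts drawn independently for each gene, which cannot show how calls behave for genes that vary together. The members and lists were chosen with earlier results of these data known. Values per library are given for every member called and for the 2 members of highest mean CPM in each role, and other cell cycle lists are given with up to 4 called genes of smallest p; further genes were named after their values were seen. Coordinates are from GENCODE M21 (GRCm38) and promoters from RefSeq.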

Additional observations from a re-analysis of the deposited data

How the results depend on the processing

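In the 16 alternatives judged at an adjusted p under 0.05, and at 0.01, E2f8, Cdca8, Tpx2 and Racgap1 kept their direction and passed the test. At an adjusted p under 0.01, 501 genes were higher and 578 lower over all genes, 3 members were higher, all G2/M (0 G1/S), and 6 other G2/M genes were higher. With the replicate block, 7 members and 6 G2/M members were higher, and fewer of all genes tested were higher than without the block. No shared effect of the replicate number was seen. Deviations of same-numbered libraries correlated at −0.13, −0.10 and −0.034, and no library correlated best with its own number. With 3 libraries per group, this does not show whether the numbers pair the libraries. With 1 library left out, 620 to 927 of all genes were higher and 706 to 1025 lower, 3 to 18 members higher and 1 to 2 lower, 0 to 2 G1/S members higher and 1 to 2 lower, 3 to 16 G2/M members higher, 3 to 7 other S-phase genes higher and 0 to 1 lower, and 6 to 11 other G2/M genes higher. The lowest counts over all genes came without DMSO replicate 1. The fitted change of some members changed sign but none of these passed: thinned to the smallest total, Aurka 0.00081, Mcm5 0.015, Cdc6 −0.029 and E2f1 −0.043; Mcm5 0.0013 with library totals and 0.0015 with no filter; and over libraries left out, Ccnb2 −0.047 to 0.11, Plk1 −0.013 to 0.19, Aurkb −0.059 to 0.082, Birc5 −0.0011 to 0.19, Ccne1 −0.0018 to 0.044, Mcm4 −0.021 to 0.058, Mcm5 −0.077 to 0.059, Pcna −0.035 to 0.017, Cdc6 −0.016 to 0.23, Cdt1 −0.071 to 0.021, Gins1 −0.26 to 0.058 and E2f1 −0.055 to 0.072. The cause was not tested. Depth limits the low members most: Gins1, with as few as 66 counts in a library, had the largest SE (0.23).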
